A study of Homo sapiens with 8 samples.

Results

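C12orf4, WDR27 and CACNA2D1 are 3 human genes in which an exon missing from the GENCODE 29 annotation was read in cells given LMI070 and was at or near 0 reads in cells given the solvent. They were chosen by comparing uniquely mapped junction reads of treated with control libraries at the introns of each gene. They are 3 of 21608 genes with a uniquely or multiply mapped read over an annotated intron, of which 21175 had a uniquely mapped one. Their junctions, counted as introns of the 3 genes or junctions that share one of their splice sites, numbered 263 of 654181. Because the treatment contrast chose the members, their values under it are described here without a test.

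The cells were HEK293, an established human embryonic kidney line. One group had received 25 nM LMI070 (branaplam), a splicing-modifying small molecule, and the other the solvent dimethyl sulfoxide (DMSO). The length of treatment is not given in the sources used here. Each group had 4 libraries of ribosome-depleted total RNA, DMSO replicates 9 to 12 and LMI070 replicates 13 to 16. Both groups were split evenly over sequencing lanes 7 and 8, with 2 libraries per group and lane. The design text speaks of groups of cells, and whether these were separate cultures is not stated, so the spread between libraries may be technical.

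Library depth was 20369466 to 36131054 uniquely mapped junction reads. In a scaling plot of gene levels, DMSO replicate 12 and LMI070 replicates 13 and 16, all from lane 7, lay apart from the rest. Lane 8 holds none of these 3 libraries, and its values are given for the exons, the host genes and some of the list genes named. All 10 HEK293 identity genes passed the expression filter, with summed levels of 1197 to 1260 RPM in DMSO and 1236 to 1259 RPM in LMI070. For these marker sums, RPM is reads scaled to the library's uniquely mapped reads over annotated introns. For the exons and introns below, RPM is reads scaled to all the library's uniquely mapped junction reads. Markers of blood summed to at most 0.459 RPM in DMSO and 0.847 RPM in LMI070, and HBB had no read. Hepatocyte markers reached at most 0.138 and 0.198 RPM, and SERPINA1 and APOB had none. Fibroblast markers summed to 21.2 to 25.8 RPM in DMSO and 23.9 to 32.6 RPM in LMI070, and neuron markers to 20.9 to 23.4 RPM and 17.4 to 21.5 RPM. Keratinising epithelium and muscle markers reached at most 2.02 and 8.36 RPM. The part of such differences in the results was not tested.

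An exon is spliced in when the spliceosome recognises a 3′ splice site before it and a 5′ splice site after it. LMI070 is known to favour the pairing of U1 snRNP with certain weak 5′ splice sites, above all in exon 7 of SMN2, and can bring otherwise unused sequence of an intron into the mature RNA. CACNA2D1 encodes an α2δ subunit of voltage-gated calcium channels, an extracellular protein that raises channel number at the cell surface and binds gabapentin. WDR27 encodes a protein of WD40 repeats, a fold that often serves as a platform for other proteins. C12orf4 is a conserved gene with little known of its function.

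The sequences below are the joints made when each exon is skipped, which fix where the exon is inserted. Each runs 5′ to 3′ on the minus strand of GRCh38, from GENCODE 29 transcripts, and the capitals mark the last 3 bases of the upstream exon. The bases before and in the capitals end the upstream exon, and those after them begin the downstream exon.
C12orf4, C12orf4-201: tcggaactagacGAGttctgtagaaatcct
WDR27, WDR27-203: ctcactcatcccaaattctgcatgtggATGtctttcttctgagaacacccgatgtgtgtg
CACNA2D1, CACNA2D1-202: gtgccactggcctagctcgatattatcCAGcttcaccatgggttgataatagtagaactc
The 3 upstream exons end in GAG, ATG and CAG. Among the exons before each intron of these transcripts, an end in GA occurred in 0 of 13 in C12orf4, 0 of 25 in WDR27 and 1 of 38 in CACNA2D1. The bases of the drug-dependent exons themselves were not used here.

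The C12orf4 exon was the best supported of the 3. C12orf4 (ENSG00000047621.11) lies on the minus strand of chromosome 12, 4487728 to 4538508. Its 135-nt exon, chr12:4537380-4537514, lay in the first intron of C12orf4-201, chr12:4536220-4538408. The start codon begins in the next exon, after 25 bases, so the inserted exon lay in the 5′ untranslated region. Reads that enter the exon from exon 1 numbered 0, 0, 0 and 0 in DMSO replicates 9 to 12 and 24, 28, 11 and 13 in LMI070 replicates 13 to 16. Reads that leave it for exon 2 numbered 0 in each DMSO library and 18, 24, 13 and 15 in LMI070. Reads that skip it numbered 34, 53, 42 and 42 in DMSO and 42, 39, 24 and 24 in LMI070. Every LMI070 library thus had at least 11 reads on each side of the exon, and no DMSO library had 1.

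Inclusion was the mean of entering and leaving reads as a percentage of that mean plus skipping reads. For C12orf4 it was 33.3%, 40%, 33.3% and 36.8% in LMI070 replicates 13 to 16, a mean of 35.9% ± 3.21 (SD, n = 4). With 0 inclusion reads against 171 skipping reads, DMSO allowed up to 0.870%. That limit takes 3 counts over the group for entering and leaving reads together, before their mean is formed. It covers counting error only. The LMI070 mean was 41.3 times that limit. Set against 3 entering reads in DMSO and scaled to depth, LMI070 entering reads were at least 23.5 times higher. Mean LMI070 inclusion was 35.1% in lane 7 and 36.7% in lane 8. Entering reads alone gave 36.2% ± 4.29 and leaving reads alone 35.4% ± 3.91 (SD, n = 4), so both ends of the exon were read about equally. Leaving reads were 92.1% of entering reads.

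Other forms at the C12orf4 intron were rare. A single read, in LMI070 replicate 13, entered another site of the same intron. The annotated junction from exon 1 past exon 2 had 17 reads in DMSO and 8 in LMI070. An annotated acceptor just inside exon 2 had 4 and 7 reads. Skipping reads were 1.77 ± 0.204 RPM in DMSO and 1.24 ± 0.183 in LMI070 (SD, n = 4). All 4 LMI070 libraries, at 1.12 to 1.51, were below the lowest DMSO library, at 1.55. The lane 8 means were 1.77 and 1.35 RPM. Such a separation was seen at 1.74% of the 122394 annotated introns with at least 100 reads. The treatment contrast chose this intron, so nothing is read from its separation. Skipping and entering reads together came to 1.77 ± 0.204 and 1.97 ± 0.426 RPM.

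The WDR27 exon was shorter and less often included. WDR27 (ENSG00000184465.16) lies on the minus strand of chromosome 6, 169457212 to 169702067, and overlaps the gene AL031315.1. The 48-nt exon, chr6:169661703-169661750, lay in intron 9 of WDR27-203, chr6:169660767-169662303. In that transcript the exon lay within the coding sequence, after 1025 of 2685 coding bases, and its length is a multiple of 3. Intron 8 of WDR27-203, just upstream, had 20 reads in DMSO and 24 in LMI070. An annotated junction from the same acceptor to another exon had 88 and 118. The coding position in other transcripts was not examined. No DMSO library had a read into or out of it. Entering reads numbered 14, 7, 4 and 4 in LMI070 replicates 13 to 16, and leaving reads 16, 6, 5 and 7. Skipping reads numbered 40, 37, 39 and 33 in DMSO and 48, 26, 18 and 23 in LMI070.

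WDR27 inclusion was 23.8%, 20%, 20% and 19.3% in LMI070 replicates 13 to 16, a mean of 20.8% ± 2.05 (SD, n = 4). The limit in DMSO, formed in the same way from 149 skipping reads, was 0.997%. The LMI070 mean was 20.8 times that limit. Set against 3 entering reads in DMSO and scaled to depth, LMI070 entering reads were at least 8.96 times higher. Mean LMI070 inclusion was 21.6% in lane 7 and 20% in lane 8. Entering reads alone gave 19.2% ± 3.45 and leaving reads alone 22.2% ± 2.66. The largest overhang of an entering read, the stretch aligned beside the junction, was 48 bases, the length of the exon. That of a leaving read was 65 bases, more than the length of the exon. The aligned stretch of that read thus ran past the exon's 3′ splice site, and the read is still counted as leaving. Which form it came from was not tested.

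Few reads left the WDR27 intron from 5′ splice sites beyond the exon. The LMI070 libraries had 1, 1, 1 and 0 reads from a site 88 nt from the exon's 3′ splice site. A single read left from a site 438 nt from it. These reads do not show where the forms they came from begin. Another 2 reads, both in replicate 13, entered the intron at a different 3′ splice site. None of these had a DMSO read. Skipping reads were 1.56 ± 0.185 RPM in DMSO and 1.07 ± 0.187 in LMI070 (SD, n = 4). The highest LMI070 library, at 1.33, was below the lowest DMSO library, at 1.38. The lane 8 means were 1.603 and 0.947 RPM. Groups were separated in this way at 1.74% of annotated introns with at least 100 reads, and the contrast chose this intron too.

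**Figure D1:**
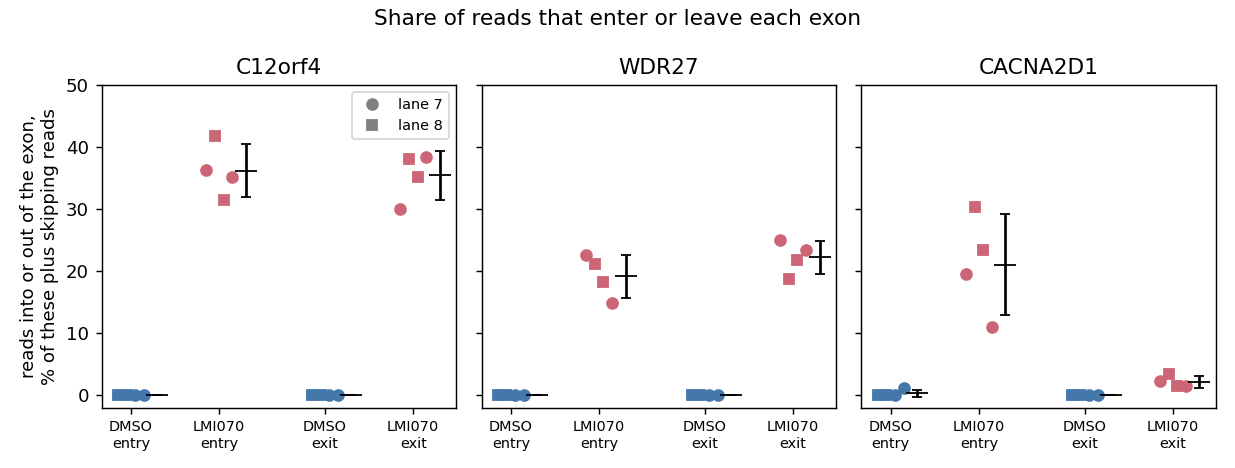
Percentage of reads that enter (entry) or leave (exit) the exon, of these plus skipping reads. Each point is a library, and the bars give the mean and SD of 4 libraries. Entry and exit were alike for C12orf4 and WDR27, while CACNA2D1 had 21.1% entry and 2.18% exit in LMI070.

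In CACNA2D1 many reads entered the exon and few left it. CACNA2D1 (ENSG00000153956.15) lies on the minus strand of chromosome 7, 81946444 to 82443798. The forms share a 3′ splice site at 82076122 in intron 7 of CACNA2D1-202, chr7:82066525-82084768, an intron of 18244 nt. This intron lies within the coding sequence, after 658 of 3273 coding bases. Entering reads numbered 0, 0, 0 and 1 in DMSO and 21, 24, 21 and 8 in LMI070. Skipping reads numbered 79, 110, 76 and 82 in DMSO and 86, 55, 69 and 65 in LMI070. The read in DMSO replicate 12 was the single control read at any of the 3 exons.

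The share of entering reads in CACNA2D1 was 19.6%, 30.4%, 23.3% and 10.96% in LMI070 replicates 13 to 16. The mean was 21.1% ± 8.09, against 0.301% ± 0.602 in DMSO (SD, n = 4). The LMI070 mean was 15.3% in lane 7 and 26.9% in lane 8. Entering reads, pooled over libraries and scaled to depth, were 68.6 times those of DMSO, with an exact 95% counting interval of 11.9 to 2744, since DMSO had 1 read. The spread between LMI070 libraries was wider than for the other exons, and replicate 16 was lowest.

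Only 6 reads left the CACNA2D1 exon, all in LMI070, against 74 that entered. They made up 7.50% of both kinds, with an exact (Clopper-Pearson) 95% interval of 2.80% to 15.6%. This interval and the next 2 pool the reads of 4 libraries and cover counting error only, since PCR copies are not separate molecules. The same share was 47.9% in C12orf4 (39.6% to 56.4%) and 54.0% in WDR27 (40.9% to 66.6%). Whether the exons differ in this share was not tested. Of the 6 reads, 5 left at the end of a 107-nt form and 1 at the end of a 95-nt form. Both lengths are counted from the 3′ splice site of the entering reads. Neither length is a multiple of 3. The 5 reads went to 3 different acceptors: 2 reads to the next annotated exon, 2 to another unannotated exon of the intron and 1 to a site elsewhere in it. Averaged over both junctions, inclusion was 12.8% ± 5.22, and from leaving reads alone 2.18% ± 0.963 (SD, n = 4). Junction reads alone do not show where transcripts that enter this exon end.

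A second unannotated exon of 48 nt, chr7:82067209-82067256, lay in the same CACNA2D1 intron. It was entered from the upstream exon by 5 reads in DMSO and 7 in LMI070. It was left for the downstream exon by 5 reads in DMSO and 13 in LMI070. It was read in both groups, unlike the forms ending at 82076122, and its start is one of the acceptors those forms joined.

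**Figure D2:**
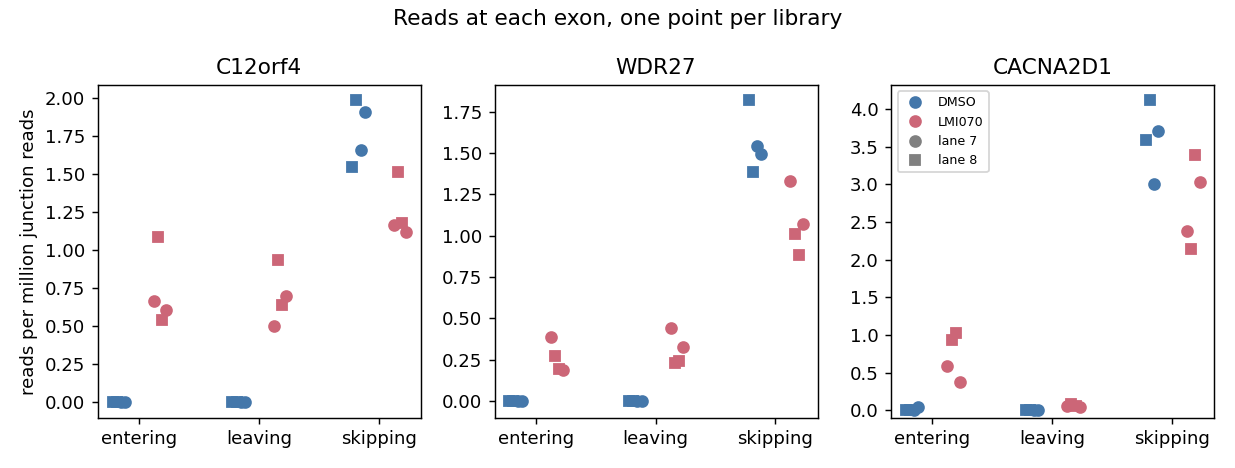
Reads, scaled to library depth (RPM), that enter, leave or skip each exon, with a point for each library, blue for DMSO and red for LMI070. Skipping reads of CACNA2D1 overlapped between the groups, while leaving reads of its exon were at 0.0777 RPM or below.

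Skipping reads of CACNA2D1 were 3.61 ± 0.462 RPM in DMSO and 2.73 ± 0.576 in LMI070, and the groups overlapped. The lane 8 means were 3.86 and 2.76 RPM. Entering and skipping reads together were 3.62 ± 0.466 and 3.46 ± 0.664 RPM (SD, n = 4).

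Reads over the other introns showed where along each gene the groups differed. In CACNA2D1, the 5 introns with reads upstream of the host intron had LMI070 to DMSO log2 ratios of -0.02 to -0.00. Over all 6 upstream introns the mean was 2.93 ± 0.223 RPM per intron in DMSO and 2.90 ± 0.194 in LMI070. The groups overlapped. Intron 3 of this transcript had no read in any library and is counted in that mean. The 31 downstream introns averaged 2.48, 2.48, 2.54 and 2.56 RPM in DMSO replicates 9 to 12. In LMI070 replicates 13 to 16 they averaged 2.12, 1.93, 2.06 and 2.25. Every LMI070 library was below every DMSO library, and the log2 ratio of the means was -0.26. The mean was lower in LMI070 at 29 of 31 downstream introns. Of the 29 with at least 100 reads, all LMI070 libraries were below all DMSO libraries at 5, as at 1.74% of the 122394 annotated introns with as many reads in the series. The same count was 2 of 12 in C12orf4 and 0 of 5 in WDR27.

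The downstream to upstream ratio of CACNA2D1 reads per intron removes the gene's overall level in a library. Its upstream side counts all 6 introns, with the unread intron 3 among them, which raises every library's ratio by the same factor. In DMSO replicates 9 to 12 the ratio was 0.939, 0.795, 0.884 and 0.826. LMI070 replicates 13 to 16 gave 0.795, 0.682, 0.690 and 0.719. The highest LMI070 library, at 0.7953, was just above the lowest DMSO library, at 0.7951, so the groups overlapped. Within lane 7 the means were 0.855 and 0.757, and within lane 8 they were 0.867 and 0.686. The introns of a gene are not independent measurements, so this step is given as a description.

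**Figure D3:**
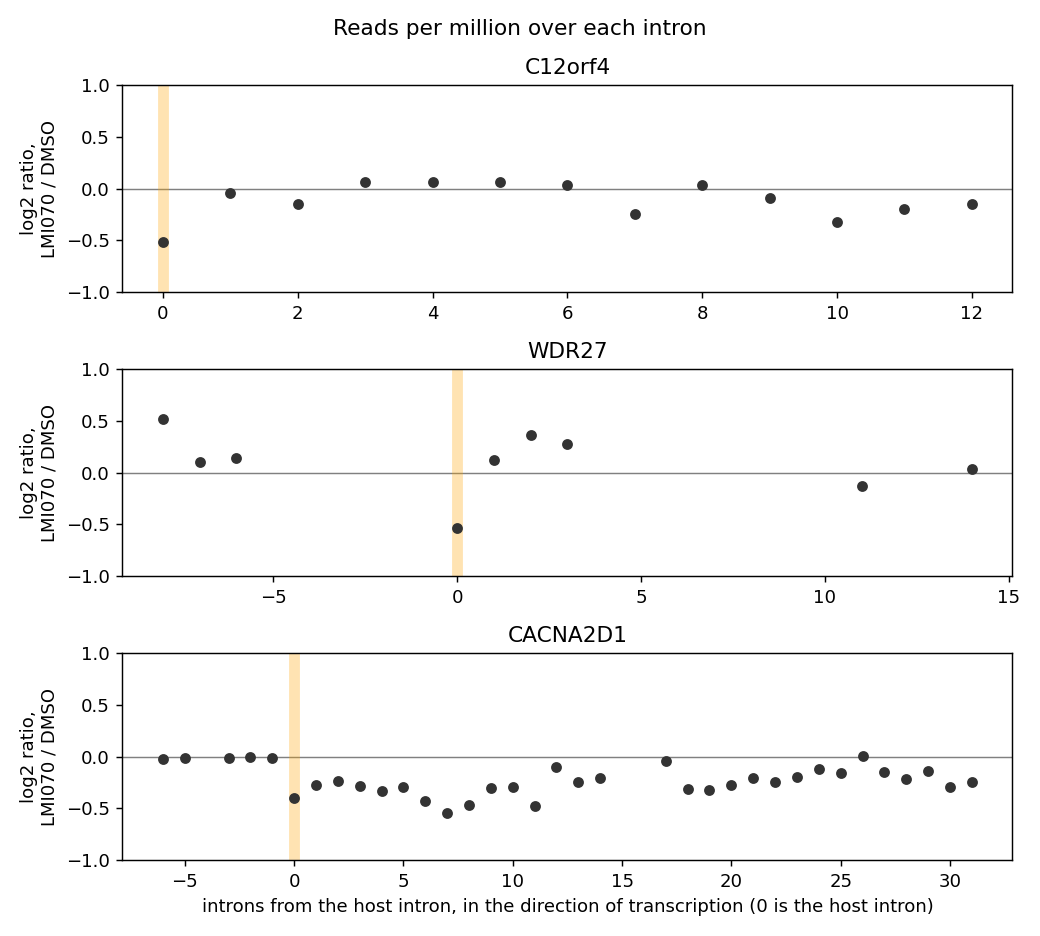
Log2 ratio of mean RPM, LMI070 over DMSO, for each intron with at least 100 reads, ordered along the transcript. The shaded position is the intron that holds the exon. CACNA2D1 introns upstream of it lie near 0, and 28 of the 29 downstream introns shown lie below 0.

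C12orf4 has no intron upstream of the one that holds the exon, so the same ratio could not be formed. Its 12 downstream introns averaged 4.11 ± 0.317 RPM in DMSO and 3.91 ± 0.125 in LMI070. In WDR27 the 8 upstream introns averaged 0.646 ± 0.107 and 0.746 ± 0.0706, and the 16 downstream introns 0.517 ± 0.0366 and 0.545 ± 0.0380 (SD, n = 4). Groups overlapped in each of these. The WDR27 means were under 1 RPM per intron, and 3 upstream and 5 downstream introns had at least 100 reads. The downstream to upstream ratio of WDR27 was 0.825 ± 0.199 in DMSO and 0.734 ± 0.0839 in LMI070 and overlapped. Whether the genes differ in this ratio was not tested.

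The summed level of each gene was taken over its annotated introns, as CPM, spliced counts scaled with TMM factors. CACNA2D1 had 104, 108, 107 and 110 CPM in DMSO replicates 9 to 12 and 91.4, 85.6, 92.5 and 98.5 CPM in LMI070 replicates 13 to 16. The LMI070 mean was 92.0 ± 5.26 against 107 ± 2.67 (SD, n = 4), a log2 fold change of -0.22 with a standard error of 0.0467. All LMI070 libraries were below all DMSO libraries, as in 2.32% of the 13487 genes tested. The log2 fold change was -0.19 in lane 7 and -0.25 in lane 8.

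C12orf4 had 48.8, 53.4, 55.5 and 58.8 CPM in DMSO and 49.7, 53.8, 50.8 and 49.7 CPM in LMI070. The log2 fold change was -0.09 with a standard error of 0.0591, and the groups overlapped. It was -0.20 in lane 7 and 0.03 in lane 8. WDR27 had 14.5, 14.3, 15.3 and 15.3 CPM in DMSO and 17.2, 16.2, 14.8 and 15.95 CPM in LMI070. Its log2 fold change was 0.12 with a standard error of 0.0738, and the groups overlapped. It was 0.12 in lane 7 and 0.11 in lane 8. Introns that WDR27 shares with AL031315.1 were left out of this sum. The level of each gene counts reads that skip its exon but not reads into or out of it. Without the host intron's reads, the log2 ratio of group means was -0.07 in C12orf4, 0.18 in WDR27 and -0.21 in CACNA2D1. In bulk RNA of a cell culture, fewer cells that express a gene and less RNA per cell cannot be told apart.

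**Figure D4:**
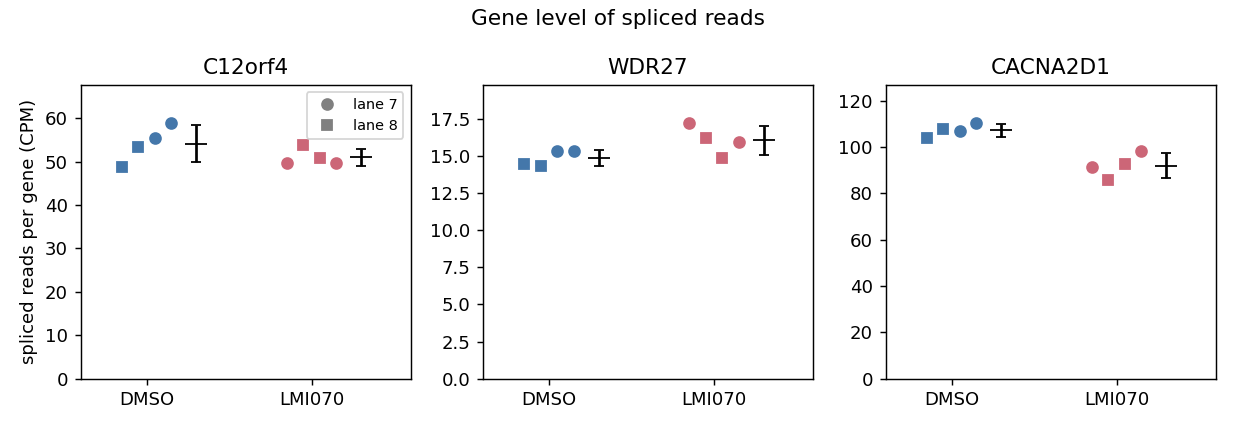
Gene level in CPM for each library, with axes from 0 and bars for the mean and SD of 4 libraries. The CACNA2D1 groups do not overlap, and those of C12orf4 and WDR27 do.

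Elsewhere in these genes, splice site use differed little. Usage is a junction's share of all reads that use either of its splice sites. Of 129495 junctions tested with edgeR's quasi-likelihood test, 0.0664% passed at an adjusted p under 0.05 with a change of at least 10 percentage points. Of the 69 tested in the 3 genes, 8 passed, all at the host introns; since the rule used this contrast, nothing is read from that count. None of the 60 tested elsewhere in the genes passed. Differences there ran up to 2.35 points in C12orf4, from -7.69 to 6.50 points in WDR27 and from -4.27 to 5.38 points in CACNA2D1.

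The other subunits of voltage-gated calcium channels were examined as the wider group of CACNA2D1. Of 25 genes, 11 passed the expression filter, and none passed the gene test in either direction, against 0.133% of all genes tested. At an unadjusted p under 0.05, 4 of the 11 were higher and 0 lower, against 6.34% and 3.98% of all genes tested. Their median log2 fold change was 0.09, and that of all genes tested was 0.00. In lane 8 alone their median was -0.04, and in lane 7 alone 0.21. The smallest adjusted p, by edgeR's quasi-likelihood test, was 0.232. The other α2δ genes with enough reads were CACNA2D2, at 21.1 ± 3.29 and 24.4 ± 2.10 CPM in DMSO and LMI070, with lane 8 means of 21.9 and 22.8 CPM, and CACNA2D3, at 27.1 ± 1.63 and 26.7 ± 1.66 CPM (SD, n = 4). Among pore-forming subunits, CACNA1H, a T-type channel, had 19.9 ± 3.15 and 23.2 ± 2.601 CPM. Its lane 8 means were 22.2 and 22.2 CPM, and its lane 7 means 17.6 and 24.3 CPM. Among the β subunits, which bind the pore inside the cell, CACNB3 had 9.56 ± 1.16 and 12.3 ± 0.614 CPM, and lane 8 means of 9.56 and 12.2 CPM. The γ subunits had too few reads to test, and CACNG1, CACNG2 and CACNG3 had none.

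Proteins that bind α2δ, the thrombospondins, COMP and LRP1, gave 5 tested genes of 6, and none passed. LRP1, an endocytic receptor, had 51.0 ± 3.03 CPM in DMSO and 62.6 ± 15.7 CPM in LMI070 (SD, n = 4), with an adjusted p of 0.338 by edgeR's quasi-likelihood test. LMI070 replicates 13 and 16, of lane 7, had 75.4 and 77.0 CPM, and the lane 8 means were 51.2 CPM in DMSO and 49.1 CPM in LMI070. In lane 7 alone LRP1 passed the test, in a setting that called 472 genes higher and 85 lower. Over both lanes, 2 of the 5 were higher at an unadjusted p under 0.05. Of 61 genes named WDR, taken by name and not by shared function, 53 were tested and none passed. Their median log2 fold change was -0.00, with 1 higher and 1 lower at an unadjusted p under 0.05. WDR43, a nucleolar protein of ribosome assembly, had 338 ± 12.6 and 328 ± 9.58 CPM in DMSO and LMI070 (SD, n = 4). Its means were 342 and 320 CPM in lane 7 and 333 and 335 CPM in lane 8.

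Genes beside the 3 hosts gave 9 tested genes of 18, and none passed; the smallest adjusted p by edgeR's quasi-likelihood test was 0.587, and 0 had an unadjusted p under 0.05. RAD51AP1, a recombination factor that starts 290 bases from C12orf4 on the opposite strand, had 79.2 and 78.1 CPM in DMSO and LMI070. Its means were 80.1 and 76.0 CPM in lane 7 and 78.3 and 80.3 CPM in lane 8. PHF10, a chromatin remodelling subunit beside WDR27, had 99.7 and 103.6 CPM, and lane 8 means of 99.9 and 99.0 CPM. SEMA3C, a secreted guidance factor and one of the nearest genes to CACNA2D1, had 32.9 and 30.8 CPM.

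Across all genes, 38 of 174096 junctions with at least 20 reads, or 0.0218%, had no DMSO read and at least 20 LMI070 reads. Only 1 junction, 0.000574%, had the reverse. The entering and leaving junctions of C12orf4 ranked 6 and 7 of the 38 by LMI070 reads, and those of WDR27 ranked 22 and 18. CACNA2D1 was outside by its 1 DMSO read and joined when 1 read was allowed, which gave 51 junctions. Within the 3 genes, no other junction without a DMSO read had more than 6 LMI070 reads. The 5 other genes with most reads on such a junction were SF3B3 (124 reads), BECN1 (97 reads), GXYLT1 (95 reads), SKP1 (95 reads) and SSBP1 (69 reads).

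**Figure D5:**
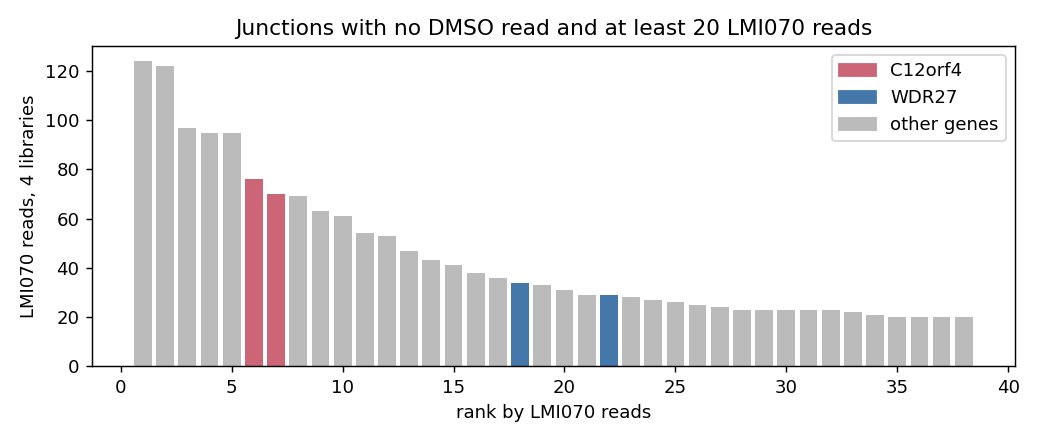
LMI070 reads, summed over 4 libraries, of the 38 junctions with no DMSO read and at least 20 LMI070 reads, in rank order. The C12orf4 junctions have 76 and 70 reads and the WDR27 junctions 34 and 29.

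Junctions of other genes were ranked by the distance of their usage from each exon's, over 8 libraries and 129495 junctions. The nearest to the C12orf4 entering junction were in SKP1 (8.0 points), LINC02210 (8.46 points) and PDXDC2P (11.8 points). For the WDR27 leaving junction they were in KDM6A (11.01 points), CCDC103 (11.7 points) and LARP7 (12.9 points). For the CACNA2D1 entering junction they were in GXYLT1 (9.95 points), KDM6A (11.9 points) and ATG2B (13.01 points). The SKP1, PDXDC2P and GXYLT1 junctions had no DMSO read, and the others were read in DMSO. Mean DMSO usage was 2.12% in LINC02210, 2.59% in KDM6A, 2.0% in CCDC103, 2.25% in LARP7 and 2.47% in ATG2B. The CCDC103 junction had 2 reads in DMSO and 18 in LMI070. Usage in LMI070 was 37.0% ± 6.24 in SKP1 and 33.7% ± 3.65 in C12orf4, with 0 in DMSO for both (SD, n = 4).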

How the data were processed

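Total RNA of HEK293 cells was depleted of ribosomal RNA and made into 8 stranded libraries, per the labels' protocols. Alignment used STAR 2.6.0c and GRCh38, per the submitters' processing notes. The deposited values are raw counts of uniquely and of multiply mapped reads over each junction, with no normalization by the authors. Annotation release and alignment settings are not given in the sources used here.

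Unique counts were matched to GENCODE 29 introns. Gene level was the sum over introns of a single gene, with 13487 genes kept by the edgeR filter and tested with edgeR 4.0.16 (R 4.3.3, TMM, lane and treatment, quasi-likelihood, Benjamini-Hochberg). Usage was tested on paired counts of a junction and the other junctions at its sites, with at least 20 reads in all and 10 at the sites per library. DESeq2 1.42.0 was an alternative. Both tests were tried on simulated data. The members and gene lists were chosen with earlier results of these data known. Genes were named by rule: the hosts, list genes past the test or with most reads, the 3 nearest usage profiles, and the 5 other genes with most reads on a junction without DMSO reads.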

Additional observations from a re-analysis of the deposited data

Results flagged for a closer look

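Of 37 sets of 4 libraries examined, 5 held a library far from the other 3. The rule flags about 1 in 20 independent sets. Here sets share reads and many rest on small counts, so that rate does not apply and nothing is read from the number flagged. In C12orf4, skipping reads were 1.51 RPM (reads scaled to the library's junction reads) in LMI070 replicate 14 and 1.12 to 1.18 in the others. WDR27 inclusion was 23.8% in LMI070 replicate 13 and 19.3% to 20% in the others. Reads per intron downstream of the WDR27 exon were 0.488 RPM in LMI070 replicate 15 and 0.558 to 0.567 in the others. In CACNA2D1, DMSO replicate 12 had 1 entering read, with 0 in the other DMSO libraries. That 1 read gave both CACNA2D1 flags, 1.20% by entering reads and 0.606% by the mean of both junctions.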

How the results depend on the processing

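No paired analysis was possible because the groups share no replicate numbers. The C12orf4 and WDR27 inclusion differences moved by less than 1 SD of the LMI070 libraries in each of 14 alternatives. Those that left out a DMSO library could not move them, because every DMSO value was 0. Leaving out 1 library gave 34.5 to 36.7 and 19.8 to 21.3 points. The CACNA2D1 difference, 12.6 points by both junctions, was 20.8 points by entering reads, 2.18 points by leaving reads, and 10.5 to 14.7 points with 1 library left out. The log2 fold change of C12orf4 was -0.20 in lane 7 and 0.0333 in lane 8. That of WDR27 stayed at 0.09 to 0.18 and that of CACNA2D1 at -0.25 to -0.19 over their alternatives, of which omitting the host intron and counting shared introns were chosen after seeing the data.

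The gene test called 3 genes higher and 15 lower. It called 8 and 25 with DESeq2, 204 and 61 when all genes with a read were kept, 472 and 85 in lane 7 alone, and 11 and 40 in lane 8 alone. With 1 library left out it called 2 to 6 and 8 to 15: 5 higher without DMSO replicate 10, 6 higher without LMI070 replicate 15 and 8 lower without LMI070 replicate 14. Calls among calcium channel genes went from 0 to 1 without the filter (CACNB3) and to 1 in lane 7 alone (CACNA1H). The usage test called 51 junctions higher and 35 lower. It called 29 and 23 in lane 7 alone, 26 and 22 in lane 8 alone, 21 lower with DESeq2, and 42 to 48 higher and 30 to 34 lower with 1 library left out. Junctions without DMSO reads numbered 121 at 10 reads and 12 at 50 reads, against 15 and 1 in reverse, and 0 in reverse when each of 4 libraries needed a read. The cause of these moves was not tested.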
